A study of Homo sapiens with 19 samples.

Results

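The genes described here are 10 markers that are commonly read to place a cell between an epithelial and a mesenchymal state. They are CDH1, EPCAM, KRT8, KRT18 and KRT19 on the epithelial side, and CDH2, VIM, SNAI2, ZEB1 and ZEB2 on the mesenchymal side. They were found by gene symbol, and all 10 were present among the 34825 symbols of each of 2 tables of normalized counts from mRNA sequencing of HepG2, a liver cancer cell line of epithelial, hepatocyte-like character. The INO80 experiment had 3 groups of 3 libraries, from cells transfected with siRNA at 50 nM and harvested 72 h later. One group had NTG, the control siRNA, and the others siINO80#1 or siINO80#2, which target INO80 with different siRNAs. In the MCRS1 experiment, cells were first kept for 3 days in 1 uM EPZ-6438 or in DMSO as its solvent control. They were then transfected in the same way with NTG or with siRNA against MCRS1 (siMCRS1). It had 2 libraries of DMSO NTG, 3 of DMSO siMCRS1, 3 of EPZ-6438 NTG and 2 of EPZ-6438 siMCRS1. INO80 is the ATPase of the INO80 chromatin remodeling complex (INO80-C), MCRS1 is a subunit that INO80-C shares with the NSL acetyltransferase complex, and EPZ-6438 inhibits EZH2, the enzyme of Polycomb repressive complex PRC2 that methylates histone H3 at lysine 27. Every group was thus a transfected culture of 1 cell line. The MCRS1 results rest on 1 siRNA reagent, for which the labels do not give the number of sequences. Whether replicate libraries came from separate cultures is not stated, so p-values measure only the spread between these libraries.

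Epithelial cells are held together by adherens junctions, in which E-cadherin (CDH1) binds its like on the neighboring cell. EPCAM is a second surface adhesion molecule of simple epithelia and of hepatic progenitors. KRT8 and KRT18 are the keratin pair that forms the intermediate filaments of hepatocytes, and KRT19 is the keratin of bile duct cells and liver progenitors. During an epithelial to mesenchymal transition (EMT), E-cadherin is lost, N-cadherin (CDH2) takes its place, and vimentin (VIM) filaments appear beside or instead of keratins. The zinc finger repressors SNAI2, ZEB1 and ZEB2 bind E-box sequences, among them in the CDH1 promoter, and are best known for turning CDH1 off. Hepatocytes are unusual among epithelia in that they make N-cadherin together with E-cadherin.

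A library of the INO80 experiment held between 17093574 and 25369547 reads, and one of the MCRS1 experiment between 26038505 and 47397233. The 2 tables were scaled separately, so levels were compared only within a table. INO80 stood at 1278, 1338 and 1175 normalized counts in NTG libraries, at 576, 639 and 609 in siINO80#1 and at 439.8, 456 and 483 in siINO80#2. MCRS1 stood at 1577 and 1283 in DMSO NTG, 140.2, 83.7 and 119 in DMSO siMCRS1, 1533, 1355 and 1201 in EPZ-6438 NTG and 126 and 90.5 in EPZ-6438 siMCRS1. Both targeted genes were therefore lower in every library of their siRNA than in every NTG library of the same table and treatment. ALB, AFP and APOB, markers of HepG2 and hepatocytes, had means of at least 10 normalized counts in both tables. The library siINO80#2 C stood apart from its replicates, with a chi-square per degree of freedom over genes of 84.3 and 121 against A and B, where the other 7 replicate pairs of that table had 9.45 to 18.7, so the called members of siINO80#2 are also given without it. Differences were tested with limma on log2(normalized count + 1), in 1 fit per table of the 14034 and 14312 genes that averaged 10 or more, and "called" means a Benjamini-Hochberg adjusted p under 0.05. Fold changes are log2 values on that scale, given with the standard error of the fit, and they understate the change of genes with few reads.

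In RefSeq on GRCh38.p14 the epithelial members are CDH1 from 68737292 to 68835537 on chromosome 16 (plus strand), EPCAM from 47369311 to 47387020 on chromosome 2 (plus strand), KRT8 from 52897191 to 52949860 on chromosome 12 (minus strand), KRT18 from 52948855 to 52952906 on chromosome 12 (plus strand) and KRT19 from 41523617 to 41528308 on chromosome 17 (minus strand). The mesenchymal members are CDH2 from 27932879 to 28177130 on chromosome 18 (minus strand), VIM from 17228241 to 17237593 on chromosome 10 (plus strand), SNAI2 from 48917598 to 48921429 on chromosome 8 (minus strand), ZEB1 from 31318417 to 31529804 on chromosome 10 (plus strand) and ZEB2 from 144384081 to 144520119 on chromosome 2 (minus strand).

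VIM, the defining filament of mesenchymal cells, was at the limit of detection throughout. It had 0 to 7 reads per library, 30 reads summed over the 9 libraries of the INO80 experiment and 36 over the 10 of the MCRS1 experiment. Its libraries held 5, 3 and 7 reads in NTG, 2, 2 and 4 in siINO80#1 and 4, 3 and 0 in siINO80#2. They held 4 and 4 in DMSO NTG, 0, 3 and 2 in DMSO siMCRS1, 2, 5 and 7 in EPZ-6438 NTG and 4 and 5 in EPZ-6438 siMCRS1. No group stood apart, and 5 of 9 and 4 of 10 libraries were at or below 3 reads, the count taken as the floor, which covers counting error only and corresponds to between 2.30 and 3.58 normalized counts in the INO80 table and between 2.13 and 4.30 in the MCRS1 table. VIM did not reach the mean of 10 in either table and was not tested. Differences within this range of reads were not detectable at this depth. The other 9 members were tested in both tables.

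Per kilobase of the canonical transcript, the 3 keratins led the 10 genes in every group. In NTG of the INO80 experiment the mean levels were 14045 normalized counts per kilobase for KRT8, 10190.1 for KRT18 and 6922 for KRT19. EPCAM followed at 1803, CDH2 at 588, CDH1 at 198 and ZEB1 at 104 normalized counts per kilobase. SNAI2 (9.66) and ZEB2 (8.21) came next, with overlapping libraries, and VIM was last at 2.38; all other neighbors in this order had libraries that did not overlap. N-cadherin transcripts thus already outnumbered E-cadherin transcripts in control cells. Under both INO80 siRNAs ZEB1 passed CDH1 in the order (126 against 80.3 per kilobase in siINO80#1, 121 against 77.1 in siINO80#2), without overlap of their libraries. Under siINO80#2 KRT19 moved to the first place with 18496 per kilobase, above KRT8 with 14995. In DMSO NTG of the MCRS1 experiment the order differed in that ZEB1 (192) and CDH1 (161) had overlapping libraries. With siMCRS1 in DMSO, ZEB1 reached 322 per kilobase and CDH1 stood at 59.5.

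The first comparisons ask how these markers stood after depletion of the INO80 ATPase. With siINO80#1, CDH1 fell and KRT19 rose, and the other 7 tested members were not called, so that 2 of 9 were called against 41.6% of all tested genes. With siINO80#2, CDH1 and SNAI2 fell and KRT19 rose, which made 3 of 9 called against 55.0% of all tested genes. Without siINO80#2 C, 4 of 9 members were called, beside 7541 of all 14034 tested genes. They were CDH1 at -1.49, adjusted p = 5.31e-06, KRT19 at 1.38, adjusted p = 9.33e-06, SNAI2 at -1.70, adjusted p = 0.0127 (limma), and KRT18, which was added. The members' median log2 fold change was 0.12 for siINO80#1 and 0.09 for siINO80#2, beside 0.00 and 0.00 over all tested genes. The called share of the members was therefore below that of all genes in both comparisons, and the 2 comparisons share their NTG libraries.

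CDH1 had 911, 893 and 1052 normalized counts in the NTG libraries A, B and C, 392, 334 and 433 in siINO80#1 and 338, 339 and 436 in siINO80#2. The highest of the 6 knockdown libraries, at 436, lay far below the lowest NTG library, at 893. The fold change of CDH1 was -1.30 ± 0.13 for siINO80#1 (adjusted p = 2.76e-05, limma) and -1.36 ± 0.13 for siINO80#2 (adjusted p = 9.71e-06), which left 40.6% and 38.9% of the NTG mean. In RNA of whole cultures, fewer cells with CDH1 and less CDH1 per cell cannot be told apart, here or in the results that follow. The siRNAs differed from each other in CDH1 by -0.06 ± 0.13 (95% interval -0.35 to 0.22, adjusted p = 0.776).

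KRT19, the ductal and progenitor keratin, had 8536, 11121 and 9208 normalized counts in NTG, 13719.6, 16249 and 16655 in siINO80#1 and 25760.2, 24079 and 27289 in siINO80#2. The 3 groups did not overlap, and siINO80#2, which left less INO80, had the higher KRT19. KRT19 rose 1.62-fold with siINO80#1 (0.70 ± 0.11, adjusted p = 7.06e-04) and 2.67-fold with siINO80#2 (1.43 ± 0.11, adjusted p = 3.28e-06). It was also the only 1 of the 9 tested members that differed between the siRNAs (0.73 ± 0.11, adjusted p = 0.00176; 0.69, adjusted p = 0.00369 without siINO80#2 C), against 22.1% of all tested genes. INO80 itself differed between the siRNAs by -0.40 ± 0.08 (adjusted p = 0.00577). Since the siRNAs differ in sequence, the amount of INO80 left and an effect of the sequence cannot be told apart here.

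SNAI2, the repressor also called Slug, had few reads. Its libraries had 12.3, 29.8 and 21.1 normalized counts in NTG (11, 29 and 22 reads), 7.15, 6.94 and 10.5 in siINO80#1 (6, 7 and 12 reads) and 3.37, 8.42 and 11.3 in siINO80#2 (3, 11 and 12 reads). All 6 knockdown libraries lay below the lowest NTG library, NTG A, although the NTG libraries themselves spread widely. The fold change was -1.38 ± 0.46 for siINO80#2 (adjusted p = 0.0247, limma) and -1.20 ± 0.46 for siINO80#1, where it was not called (adjusted p = 0.0571). Same-letter libraries of NTG and siINO80#1 deviated together, but whether the letters pair libraries is not known. With the letter as a replicate block, 6327 of all 14034 tested genes were called for siINO80#1. SNAI2 was then called as well (-1.20, adjusted p = 0.0327, limma), which made 3 called members. It was also called under 7 other alternatives, among them edgeR on the recovered reads (adjusted p = 0.0304) and the fit without NTG A (-1.53, adjusted p = 0.0358). The siINO80#2 call was lost without siINO80#2 A (-0.95, adjusted p = 0.0888), without NTG B (-1.10, 0.0999) and without NTG C (-1.34, 0.0676).

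The 2 other repressors did not pass the test with either siRNA. ZEB1 had 642, 629 and 572 normalized counts in NTG, 785, 718 and 749 in siINO80#1 and 718, 567 and 866 in siINO80#2. The siINO80#1 libraries all lay above NTG (0.29 ± 0.13, adjusted p = 0.104), while the siINO80#2 libraries held both the lowest and the highest value of the 9 (0.20 ± 0.13, adjusted p = 0.216). In a fit of siINO80#1 and NTG alone the first was called (adjusted p = 0.00985), and without siINO80#2 B the second was (0.36, adjusted p = 0.0126). ZEB2 ranged from 60.2 to 94.1 normalized counts in NTG and from 62.1 to 108 in the knockdown libraries, with fold changes of 0.02 ± 0.22 for siINO80#1 and 0.25 ± 0.22 for siINO80#2. CDH2 overlapped between all 3 groups, from 2060.2 to 2634 normalized counts in NTG and from 2421 to 2755 in the knockdowns, and its fold changes of 0.16 ± 0.09 and 0.09 ± 0.09 had 95% intervals of -0.04 to 0.36 and -0.11 to 0.29.

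Of the remaining epithelial markers, EPCAM was at 2766, 2702 and 2900.3 normalized counts in NTG, 2789.9, 2739 and 2848 in siINO80#1 and 2667, 2409 and 2667 in siINO80#2. The siINO80#2 libraries lay slightly below the other 2 groups (-0.11 ± 0.07 against NTG, adjusted p = 0.167), and this was called only after rescaling to equal totals (-0.22, adjusted p = 0.0193). KRT8 lay above NTG in all 6 knockdown libraries, from 25941 to 28275 normalized counts against 24527 to 25548, but its fold changes of 0.12 ± 0.08 and 0.09 ± 0.08 were not called, and under quantile normalization they were -0.09 and -0.12. KRT18 was at 14481, 15208 and 13507 in NTG, 17269, 17185 and 17042 in siINO80#1 and 17543, 15794 and 12451.5 in siINO80#2. Its siINO80#1 libraries lay above NTG (0.26 ± 0.11, adjusted p = 0.0992; 0.00879 in a fit of these groups alone), and siINO80#2 C lay below it; without that library KRT18 was called for siINO80#2 (0.21, adjusted p = 0.0353).

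**Figure D1:**
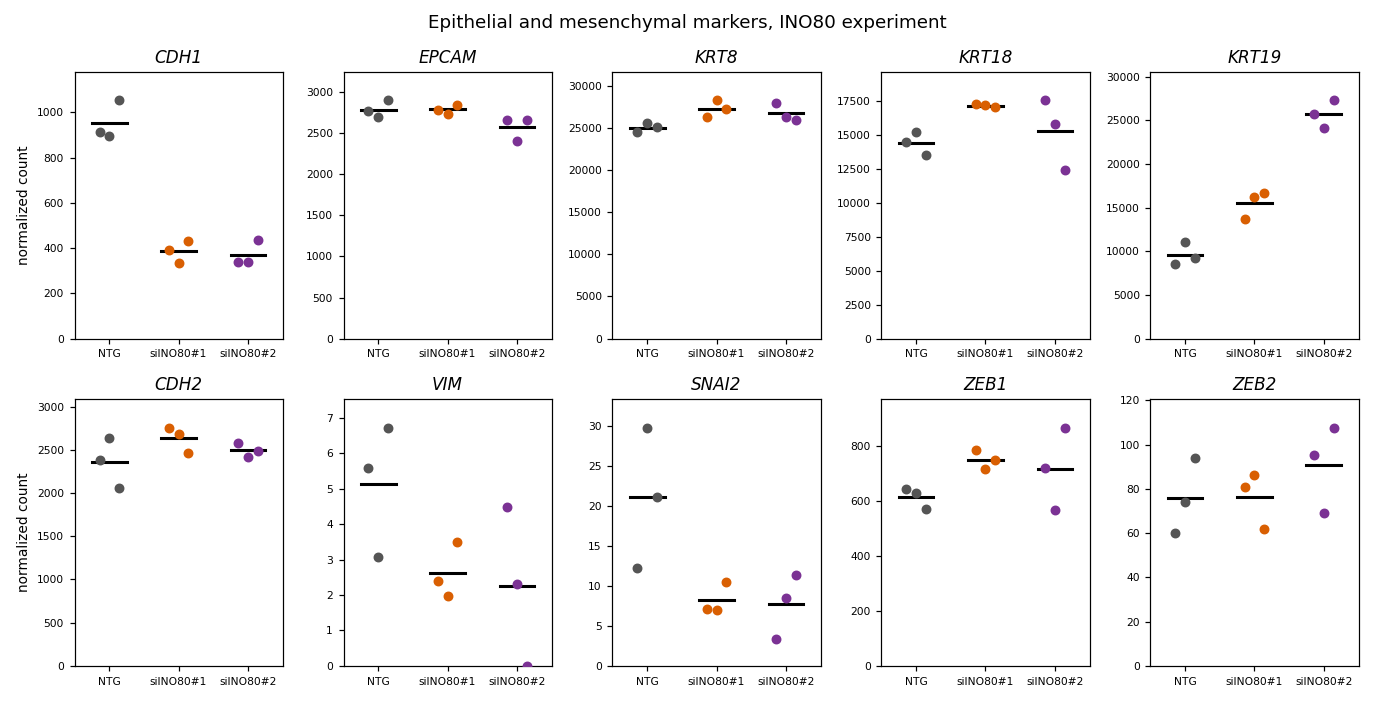
Normalized counts of the 10 markers in each library of the INO80 experiment, with 1 panel per gene, points for the 3 libraries of each group, a black line for the group mean and a linear vertical axis from 0. CDH1 was lower and KRT19 higher in every knockdown library than in every NTG library, SNAI2 was lower at very low counts, and VIM stayed at or near 0.

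The next comparison asks the same of MCRS1, in cells that had DMSO. Here 7 of 9 tested members were called with limma, against 47.7% of all tested genes. CDH1 and EPCAM fell, and CDH2, KRT8, KRT19, ZEB1 and ZEB2 rose. The members' median log2 fold change was 0.57, beside 0.00 over all tested genes. Epithelial keratins and mesenchymal genes thus went up in the same libraries in which the 2 epithelial adhesion genes went down. Without DMSO NTG 1, which leaves that group with 1 library assumed to vary like the others, fewer members were called. Fewer of all tested genes were called in that fit too.

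CDH1 had 623 and 927 normalized counts in DMSO NTG and 230.4, 382 and 246 in DMSO siMCRS1. The groups did not overlap, and the fold change of -1.44 ± 0.45 (adjusted p = 0.0210, limma) left 36.9% of the control mean. The call was lost under quantile normalization (-1.21, adjusted p = 0.0624), without DMSO NTG 3 (-1.16, adjusted p = 0.141), without DMSO siMCRS1 1 (-1.31, adjusted p = 0.0537) and without DMSO siMCRS1 3 (-1.35, adjusted p = 0.0551). EPCAM had 5730.1 and 5434 in DMSO NTG and 4456, 4294 and 3942 in DMSO siMCRS1. Its libraries were separate too, with a smaller difference of -0.40 ± 0.11 (adjusted p = 0.00999; -0.36, adjusted p = 0.0757 without DMSO NTG 1).

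Among the mesenchymal members, the cadherin gene CDH2 and the repressor genes ZEB1 and ZEB2 were called higher with siMCRS1 in DMSO, as KRT8 and KRT19 were among the epithelial ones. The stretch around the transcription start of these 3 mesenchymal genes is shown to set side by side genes that moved in the same direction, from 250 bases before to 50 bases after it. The sequences are those of RefSeq on GRCh38.p14, read 5′ to 3′ along the gene. Capitals mark the E-box CAGGTG or its reverse CACCTG, the hexamer that SNAI and ZEB proteins bind, and the YY1 core ATGGCG or its reverse CGCCAT, since YY1 is the DNA-binding partner of INO80-C. For ZEB1, which has several start sites, the window with the start of the canonical transcript is given. The promoter table used here had entries for CDH2, VIM, KRT8, ZEB1 and ZEB2; CDH1, EPCAM, KRT18 and KRT19 were not matched in it.
CDH2 (minus strand, chr18:28177081-28177380): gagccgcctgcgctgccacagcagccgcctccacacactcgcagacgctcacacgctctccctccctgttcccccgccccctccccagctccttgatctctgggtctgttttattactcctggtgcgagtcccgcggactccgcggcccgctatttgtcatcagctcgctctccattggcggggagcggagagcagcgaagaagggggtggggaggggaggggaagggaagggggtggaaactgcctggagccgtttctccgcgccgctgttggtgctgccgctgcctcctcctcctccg
ZEB1 (plus strand, chr10:31318966-31319265): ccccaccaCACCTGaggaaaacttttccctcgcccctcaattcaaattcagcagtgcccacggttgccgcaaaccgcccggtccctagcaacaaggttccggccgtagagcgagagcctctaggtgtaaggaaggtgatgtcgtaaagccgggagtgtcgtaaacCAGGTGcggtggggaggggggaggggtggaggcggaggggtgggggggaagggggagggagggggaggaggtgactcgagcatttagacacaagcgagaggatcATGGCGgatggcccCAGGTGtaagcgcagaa
ZEB2 (minus strand, chr2:144520070-144520369): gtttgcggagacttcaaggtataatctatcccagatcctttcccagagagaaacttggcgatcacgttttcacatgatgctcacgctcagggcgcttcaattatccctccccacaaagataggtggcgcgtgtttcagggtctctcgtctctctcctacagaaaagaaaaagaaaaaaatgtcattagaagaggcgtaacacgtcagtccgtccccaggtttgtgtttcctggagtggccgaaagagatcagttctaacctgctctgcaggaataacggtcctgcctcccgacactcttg
The ZEB1 window held 3 E-boxes and 1 YY1 core, and those of CDH2 and ZEB2 held neither hexamer. On either strand, the E-box was in 20.6% and the YY1 core in 10.7% of all 35116 promoter windows of this length. The 3 genes thus share neither hexamer in these windows, and a match describes letters only.

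CDH2 had 3943 and 4680.1 normalized counts in DMSO NTG and 6293, 7345 and 7423 in DMSO siMCRS1. All siMCRS1 libraries were above both controls, and CDH2 rose 1.63-fold (0.70 ± 0.17, adjusted p = 0.00663; 0.58, adjusted p = 0.0706 without DMSO NTG 1). ZEB1 had 1089.5 and 1193 in DMSO NTG and 1581, 2000.2 and 2159 in DMSO siMCRS1. It rose 1.68-fold without overlap (0.73 ± 0.14, adjusted p = 0.00129), and it was called under every alternative that was run. ZEB2 started from few reads, with 20.1 and 45.8 in DMSO NTG and 154, 110.1 and 296.5 in DMSO siMCRS1. Its change was the largest of the 9 tested members in this comparison, 5.67-fold between the means (2.45 ± 0.57, adjusted p = 0.00471), and its standard error the widest. Without DMSO NTG 1 it was not called (1.88, adjusted p = 0.0618). The third repressor went the other way, with SNAI2 at 23.0 and 16.2 in DMSO NTG (24 and 17 reads) and 11.1, 8.81 and 12.9 in DMSO siMCRS1 (10, 8 and 9 reads). The groups did not overlap, but the difference of -0.78 ± 0.35 was not called (adjusted p = 0.0859), except after rescaling to equal totals (adjusted p = 0.0389) or with eBayes without a trend (adjusted p = 0.0233).

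Among the keratins, KRT19 had 15298.5 and 14945 normalized counts in DMSO NTG and 30959, 31858.5 and 26212 in DMSO siMCRS1. The groups were far apart and KRT19 rose 1.96-fold (0.97 ± 0.20, adjusted p = 0.00219). KRT8 had 52364 and 44471 in DMSO NTG and 74390.2, 79572 and 61589 in DMSO siMCRS1, without overlap (0.57 ± 0.18, adjusted p = 0.0259). Its call depended on the scaling and on single libraries, being lost at equal totals (0.33, adjusted p = 0.0990) and under quantile normalization (0.21, adjusted p = 0.228), and with adjusted p-values of 0.0526 and 0.168 without DMSO NTG 1 or 3, and 0.0623 and 0.0833 without DMSO siMCRS1 1 or 2. KRT18, its filament partner, had 26366 and 21679.8 in DMSO NTG and 34018, 37149 and 27458.5 in DMSO siMCRS1. These did not overlap either, but the difference of 0.45 ± 0.18 was not called (adjusted p = 0.0608; 0.0286 without DMSO siMCRS1 3 and 0.0247 with DESeq2). KRT8 and KRT18 lie on opposite strands of chromosome 12 and overlap in the annotation (GRCh38.p14, 52897191 to 52949860 and 52948855 to 52952906), and the sources used here do not say if strand was used in counting. Both genes have many processed copies in the genome, whose listed rows summed to at most 1.07% of the gene's own mean in either table.

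**Figure D2:**
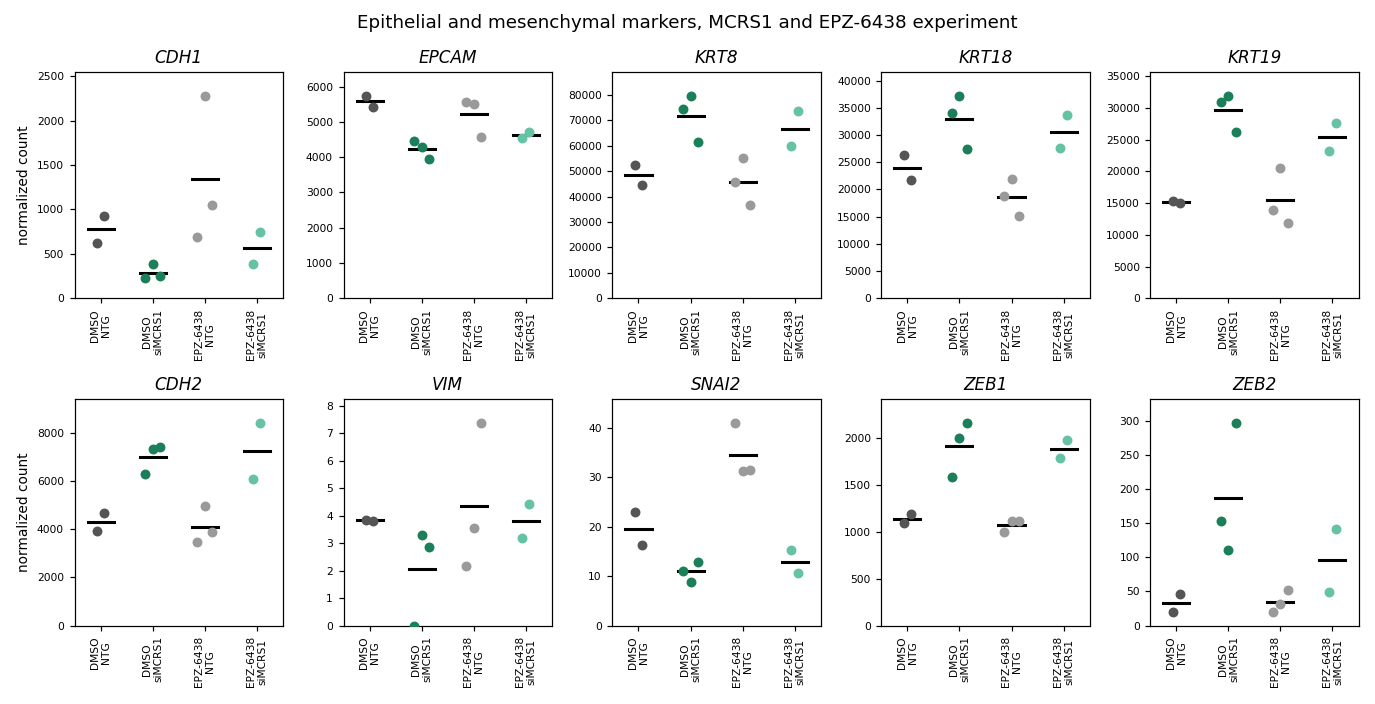
Normalized counts of the 10 markers in each library of the MCRS1 and EPZ-6438 experiment, with 1 panel per gene, points for the 2 or 3 libraries of each group, a black line for the group mean and a linear vertical axis from 0. In both treatments ZEB1, CDH2 and KRT19 were higher in every siMCRS1 library than in every NTG library, and 1 EPZ-6438 NTG library stood out with a CDH1 level of 2275.

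With EPZ-6438 present, siMCRS1 was again compared with NTG, in cells that also had the EZH2 inhibitor. Of the 9 tested members 7 were called, against 53.7% of all tested genes. CDH1 and SNAI2 fell, and CDH2, KRT8, KRT18, KRT19 and ZEB1 rose, with a median log2 fold change over the members of 0.73 beside 0.01 over all tested genes. EPZ-6438 siMCRS1 had only the libraries A and B. Without B, which leaves that group with 1 library, fewer members were called, as were fewer of all tested genes.

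CDH1 had 685, 2275 and 1053 normalized counts in EPZ-6438 NTG and 381 and 740.2 in EPZ-6438 siMCRS1. The control library 2 had more than its neighbors and the groups overlapped, since siMCRS1 B lay above control library 1. The fold change of -1.15 ± 0.45 was just past the threshold (adjusted p = 0.0492, limma). It was not called without control library 2 (-0.68, adjusted p = 0.152), without control library 3 (-1.23, adjusted p = 0.0711), without siMCRS1 A (-0.67, adjusted p = 0.330) or with DESeq2 (-1.25, adjusted p = 0.0602), nor under 5 other alternatives (adjusted p = 0.0514 to 0.0900). EPCAM overlapped between the groups (5564, 5514 and 4582 against 4544 and 4707 normalized counts) and was not called (-0.17 ± 0.11, adjusted p = 0.206), but it was called at equal totals (-0.41, adjusted p = 0.00434) and under quantile normalization (-0.45, adjusted p = 0.00244).

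CDH2 had 3489.6, 4978 and 3875 normalized counts in EPZ-6438 NTG and 6091 and 8400.1 in EPZ-6438 siMCRS1 (0.81 ± 0.17, adjusted p = 0.00243). ZEB1 had 1001, 1113 and 1117.5 and 1786 and 1981 (0.81 ± 0.14, adjusted p = 5.78e-04). For both genes the groups were well separated. ZEB2 had 20.5, 32.0 and 51.5 and 48.8 and 142, so that siMCRS1 A lay among the controls, and its difference of 1.34 ± 0.57 was not called (adjusted p = 0.0674; 2.10, adjusted p = 0.0203 without siMCRS1 A, 1.67, adjusted p = 0.0423 without control library 3, and adjusted p = 0.0201 with DESeq2). SNAI2 had 40.9, 31.3 and 31.5 in EPZ-6438 NTG (38, 44 and 30 reads) and 15.2 and 10.7 in EPZ-6438 siMCRS1 (19 and 12 reads). It was lower in both siMCRS1 libraries than in any control (-1.36 ± 0.35, adjusted p = 0.00683; -1.12, adjusted p = 0.0756 without siMCRS1 B).

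KRT19 had 13862.5, 20533 and 11915 normalized counts in EPZ-6438 NTG and 23269 and 27647 in EPZ-6438 siMCRS1 (0.76 ± 0.20, adjusted p = 0.00739). KRT18 had 18706, 21858 and 15093 and 27559.7 and 33699 (0.73 ± 0.18, adjusted p = 0.00555), and KRT8 had 45689, 55396 and 36634 and 60062.5 and 73570.3 (0.55 ± 0.18, adjusted p = 0.0254). The siMCRS1 libraries were above the controls for each of the 3 keratins. Under quantile normalization none of the 3 was called (adjusted p = 0.135, 0.0968 and 0.143), nor without siMCRS1 B (0.0751, 0.0687 and 0.202). KRT8 was also not called at equal totals (0.32, adjusted p = 0.107) or without control library 3 (0.40, adjusted p = 0.0838).

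EPZ-6438 alone was compared with DMSO in NTG cells, to see whether blocking EZH2 moved these markers. No member was called by limma, against 0.384% of all tested genes, and none was called by edgeR or DESeq2. At an unadjusted p under 0.05 the count was 1, against 17.1% of all tested genes. This was SNAI2, which had 23.0 and 16.2 normalized counts with DMSO and 40.9, 31.3 and 31.5 with EPZ-6438. All 3 treated libraries were above both controls (0.80 ± 0.35, adjusted p = 0.275). CDH1 differed by 0.63 ± 0.45 with a 95% interval of -0.35 to 1.62, and the other 7 tested members had differences between -0.38 for KRT18 and 0.09 for ZEB2. In NTG cells KRT18 was called lower when the column number served as a replicate block in the numbered libraries. That fit called 1161 of all 14312 tested genes, against 59 in the same libraries with no block. In siMCRS1 cells EPZ-6438 against DMSO gave 0 called members with limma, edgeR and DESeq2, against 0.0908% of all tested genes, and 0 at an unadjusted p under 0.05, where 9.12% of all tested genes stood. The largest differences there were ZEB2 at -1.03 ± 0.57 (95% interval -2.28 to 0.22) and CDH1 at 0.93 ± 0.45 (95% interval -0.06 to 1.91). The interaction of siMCRS1 and EPZ-6438, which tests whether the siMCRS1 effect differed between the treatments, was called for 0 members by limma, edgeR and DESeq2 and for none at an unadjusted p under 0.05, beside 0% of all tested genes called by limma and 2.35% at that unadjusted p. With groups of 2 and 3 libraries these intervals are wide, and differences inside them were not detectable.

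Set side by side, the knockdown effects can be read gene by gene. CDH1 fell by 1.30 and 1.36 on the log2 scale with the INO80 siRNAs and by 1.44 and 1.15 with siMCRS1 in DMSO and EPZ-6438. KRT19 was higher by 0.70 and 1.43 with the INO80 siRNAs and by 0.97 and 0.76 with siMCRS1. ZEB1 and CDH2 had log2 fold changes of 0.29 and 0.16 with siINO80#1 and 0.20 and 0.09 with siINO80#2, none of them called, and 0.73 and 0.70 with siMCRS1 in DMSO, both called. The difference between the INO80 and MCRS1 knockdowns was not tested, since they come from separately scaled tables.

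**Figure D3:**
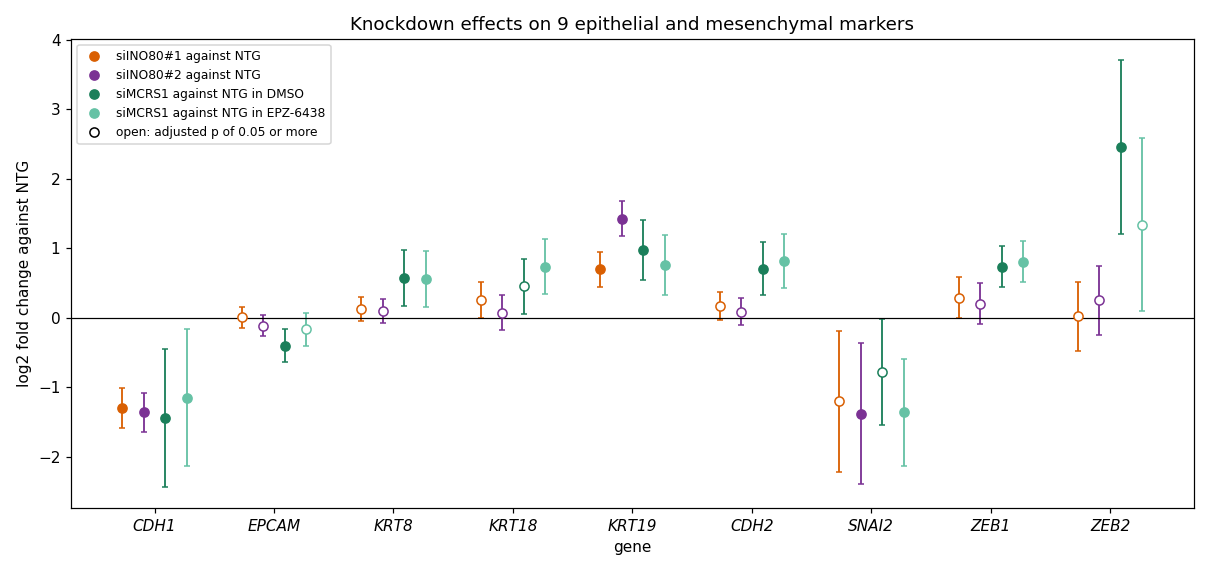
Log2 fold change against NTG (vertical axis, log2(normalized count + 1) scale) of the 9 tested markers in 4 knockdown comparisons, with points for the limma estimate, bars for its 95% interval, filled points for an adjusted p under 0.05 and open points otherwise. CDH1 and KRT19 are filled in all 4 comparisons, on opposite sides of 0, while CDH2 and ZEB1 are filled only for siMCRS1.

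The balance of the cadherins was taken per library as the ratio of CDH2 to CDH1 normalized counts, which does not depend on the scaling of a library. It was 2.62, 2.95 and 1.96 in NTG, 7.02, 8.01 and 5.68 in siINO80#1 and 7.64, 7.14 and 5.70 in siINO80#2. It was 6.33 and 5.05 in DMSO NTG and 27.3, 19.2 and 30.1 in DMSO siMCRS1, and 5.09, 2.19 and 3.68 in EPZ-6438 NTG and 16.0 and 11.3 in EPZ-6438 siMCRS1. Each knockdown group lay above its NTG group without overlap. KRT19 against KRT18, ductal against hepatocyte keratin, was 0.589, 0.731 and 0.682 in NTG, 0.794, 0.946 and 0.977 in siINO80#1 and 1.47, 1.52 and 2.19 in siINO80#2, so that KRT19 exceeded KRT18 in counts only in siINO80#2 libraries. It was 0.580 and 0.689 in DMSO NTG and 0.910, 0.858 and 0.955 in DMSO siMCRS1, without overlap. With EPZ-6438 it was 0.741, 0.939 and 0.789 in NTG and 0.844 and 0.820 in siMCRS1, which overlapped. KRT8 against KRT18, which pair in the filament, was 1.68 to 1.86 in NTG, 1.52 to 1.65 in siINO80#1 and 1.59 to 2.08 in siINO80#2, so that siINO80#1 lay below NTG. It was 1.99 to 2.05 in DMSO NTG, 2.14 to 2.24 in DMSO siMCRS1, 2.43 to 2.53 in EPZ-6438 NTG and 2.18 to 2.18 in EPZ-6438 siMCRS1, so that EPZ-6438 NTG lay above the other 3 groups and DMSO NTG below them. These ratios were not tested.

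**Figure D4:**
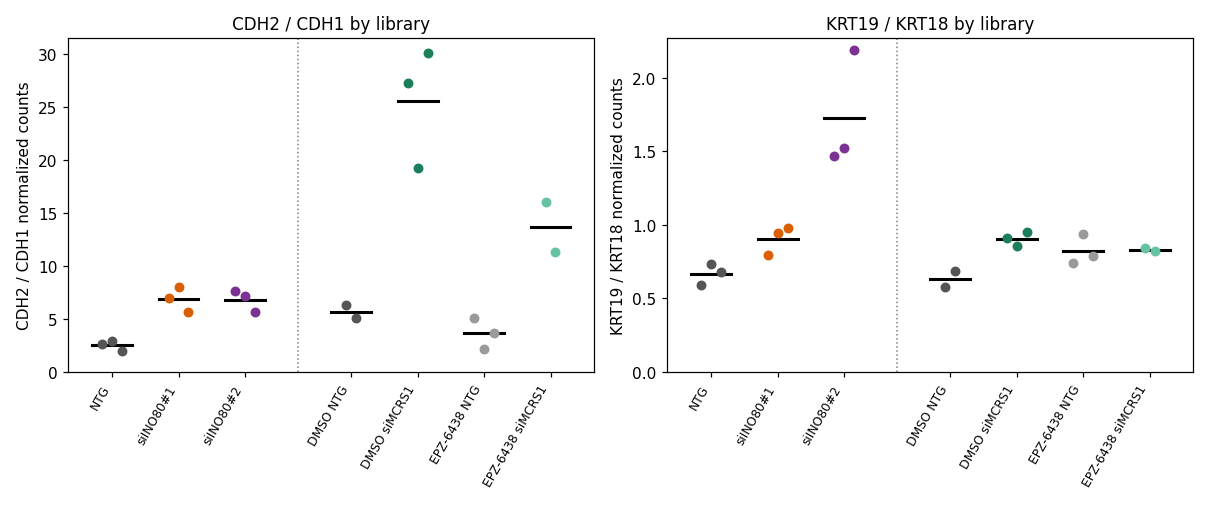
Ratios of normalized counts per library (vertical axes, linear from 0) of CDH2 to CDH1 on the left and of KRT19 to KRT18 on the right, with points for libraries, black lines for group means and a dotted line between the separately scaled experiments. The cadherin ratio of every knockdown library lies above all NTG libraries of its table and treatment, and the keratin ratio is highest in siINO80#2.

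To place the markers among their neighbors in the pathway, 10 wider lists with 166 genes were counted in the same 4 knockdown comparisons. The lists were chosen with earlier results of these data known, so their counts are descriptions and not independent support. The shares over all tested genes were 20.7% higher and 20.8% lower for siINO80#1, 26.6% and 28.4% for siINO80#2, 23.1% and 24.6% for siMCRS1 in DMSO, and 26.8% and 26.9% for siMCRS1 in EPZ-6438. In the TGF-beta pathway, the best known inducer of EMT, the tested genes stood at 10 of 19 higher and 1 lower with siINO80#1, 15 of 19 higher and 2 lower with siINO80#2, 12 of 19 higher and 2 lower with siMCRS1 in DMSO and 14 of 19 higher and 1 lower in EPZ-6438. The medians over the pathway were 0.47, 0.69, 0.74 and 0.86 in that order. TGFB1, the ligand, had log2 fold changes of 2.05, 2.20, 2.30 and 2.05, and TGFBR1, the signaling receptor, 1.04, 1.03, 1.18 and 1.38, and all 8 values were called. Of those that were lower, ACVR1B, the activin receptor, fell with the INO80 siRNAs (-0.70 and -0.43, from 1122 ± 32.2 normalized counts in NTG to 689 ± 23.9 and 835 ± 95.5, SD over 3 libraries). SMAD7, an inhibitor of the pathway, fell with siINO80#2 (-0.88, adjusted p = 0.0111; -0.74, adjusted p = 0.0386 without siINO80#2 C) and stood at -0.07 with siINO80#1, not called. SMURF1, another inhibitor, was called higher with siINO80#2, with means of 858 normalized counts in NTG and 1755 in siINO80#2. TGIF1, a repressor of the pathway, was called higher with siMCRS1 in EPZ-6438. The list thus holds genes that act for and against the pathway, and pathway activity was not tested. TGFBR3, the coreceptor betaglycan, fell with siMCRS1 in DMSO (-0.48, adjusted p = 0.00530), but was called higher with siINO80#2 (0.29, not called at equal totals) and stood at -0.05 with siMCRS1 in EPZ-6438. Rescaling to equal totals moved the median of all tested genes by -0.08 and -0.11 with the INO80 siRNAs and by -0.23 and -0.23 with siMCRS1. The genes called higher and lower then went from 2912 and 2921 to 2165 and 3276 for siINO80#1, from 3733 and 3992 to 2856 and 4526 for siINO80#2, from 3307 and 3523 to 1894 and 5098 for siMCRS1 in DMSO and from 3839 and 3847 to 2296 and 5313 in EPZ-6438. In the TGF-beta pathway 9, 12, 8 and 11 of 19 were called higher at equal totals.

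More genes that build and cut the mesenchymal matrix were called higher than lower in each comparison. In the list of matrix genes and proteases the counts were 10 of 19 higher and 0 lower with siINO80#1, 11 of 19 higher and 2 lower with siINO80#2, 11 of 18 higher and 1 lower with siMCRS1 in DMSO and 10 of 18 higher and 0 lower in EPZ-6438, and the medians were 0.62, 0.83, 0.77 and 0.90. MMP2, a gelatinase, rose in all 4 comparisons (1.50, 2.62, 3.16 and 1.78), as did PLAUR, the urokinase receptor (1.75, 2.17, 1.65 and 1.51), and MMP14, which activates MMP2 (1.33, 2.06, 1.76 and 1.57). COL6A1, a collagen chain, rose with the INO80 siRNAs (1.32 and 2.82). LOX, which crosslinks collagen, fell with siINO80#2 (-1.60, adjusted p = 0.0423), from 819 ± 538 to 248 ± 171 normalized counts (SD, n = 3), a call lost under 8 alternatives, among them without NTG A or C or siINO80#2 A or C (adjusted p = 0.162, 0.139, 0.133 and 0.114). COL1A1, a fibrillar collagen chain, fell with siINO80#2 as well (-0.63, adjusted p = 0.0490), which was lost under 12 alternatives, among them without NTG A or B or siINO80#2 B or C (adjusted p = 0.0656, 0.190, 0.149 and 0.0982), while it rose with siMCRS1 in EPZ-6438 (2.91). COL5A2 fell with siMCRS1 in DMSO (-0.47, adjusted p = 0.0384), lost under 10 alternatives, among them without DMSO NTG 1 or 3 or DMSO siMCRS1 2 or 3 (adjusted p = 0.234, 0.0667, 0.0795 and 0.0901). Across all alternatives the genes called higher in this list were 10 to 11, 10 to 12, 6 to 11 and 7 to 11, with 7 and 7 for siMCRS1 at equal totals and 6 in DMSO without DMSO NTG 1. For mesenchymal cytoskeleton and surface genes the counts were 12 of 17 higher and 3 lower, 12 of 17 higher and 2 lower, 8 of 18 higher and 1 lower and 12 of 18 higher and 2 lower in the same order, with medians of 0.85, 0.78, 0.50 and 0.69, and across alternatives 10 to 12, 10 to 13, 6 to 10 and 9 to 12 were called higher. TAGLN, which binds actin in smooth muscle, rose with siINO80#1 and siMCRS1 in DMSO (1.37 and 1.31), and CNN1, another smooth muscle actin-binding protein, rose with siMCRS1 (3.15 and 2.59). ACTA2, smooth muscle actin itself, fell in all 4 (-1.71, -1.16, -1.87 and -2.23), although the siINO80#2 call was lost without siINO80#2 B (-0.72, adjusted p = 0.0688), NTG A (-1.13, adjusted p = 0.0605) or NTG C (-0.92, adjusted p = 0.0954). CALD1 was also called lower with both INO80 siRNAs, from 6432 ± 237 normalized counts in NTG to 4810 ± 237 and 3355 ± 237 (SD, n = 3). ACTA2, and CALD1 with the INO80 siRNAs, thus went against most called genes of their list.

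Markers of other cell types were summed beside these lists, and some of the sums moved with the siRNAs. The 6 fibroblast and stellate cell markers (COL1A1, COL1A2, COL3A1, DCN, LUM and PDGFRB) summed to 259 to 287 normalized counts in NTG, 464 to 487 in siINO80#1 and 297 to 319 in siINO80#2. They summed to 347 to 368 in DMSO NTG, 563 to 908 in DMSO siMCRS1, 259 to 408 in EPZ-6438 NTG and 842 to 890.2 in EPZ-6438 siMCRS1. The knockdown libraries lay above their NTG libraries each time, 4 of the 6 markers in the INO80 table and 3 in the MCRS1 table had a mean of at least 10, and 4 of the 6 also stand in the mesenchymal lists. The part of this sum in the mesenchymal results was not tested. The 4 endothelial markers (PECAM1, VWF, CDH5 and KDR) summed to 207 to 245 in NTG, 244 to 288 in siINO80#1 and 281 to 340.1 in siINO80#2, and to between 176 and 281 in the MCRS1 experiment, where KDR was at 0 in all 10 libraries and the groups overlapped.

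Of the 10 markers of HepG2 and hepatocytes, HNF4A and ALB are named after their values were seen, and the list did not fall as a whole. In it 1 was called higher and 1 lower with siINO80#1, and 1 higher and 4 lower with siINO80#2. With siMCRS1, 0 were higher and 2 lower in DMSO, and 1 higher and 3 lower in EPZ-6438. The medians were 0.05, -0.17, 0.08 and -0.10, and the shares over all tested genes are those given for the wider lists. HNF4A, the nuclear receptor that sets hepatocyte identity, fell in all 4 knockdown comparisons (-0.45, -1.02, -0.55 and -0.55), from 5619 ± 281 normalized counts in NTG to 4133 ± 336 and 2759 ± 51.2 with the INO80 siRNAs (SD, n = 3). Its siMCRS1 calls were lost in DMSO without DMSO NTG 1 (-0.39, adjusted p = 0.160) or DMSO siMCRS1 3 (-0.44, adjusted p = 0.0553), and in EPZ-6438 without control library 2 (-0.45, adjusted p = 0.0524) or siMCRS1 B (-0.41, adjusted p = 0.149). ALB, or albumin, fell with siINO80#2 from 169445 ± 28671 to 113494 ± 7221 normalized counts (SD, n = 3; -0.57, adjusted p = 0.0158; -0.45, adjusted p = 0.0652 without NTG C), and its other values were 0.29, 0.30 and 0.57. The part of these 2 markers in the member results was not tested.

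The 4 cholangiocyte markers (KRT7, SOX9, CFTR and SPP1), which bear on KRT19, summed to 12542 to 15017 normalized counts in NTG, 8870.3 to 9985 in siINO80#1 and 8786 to 11503 in siINO80#2. The sum was thus lower where KRT19 was higher, but the markers did not move as a set. Of the 2 tested, 1 was called lower and 0 higher with each INO80 siRNA. SPP1 had means of 10011 in NTG and 5234 and 6244 in siINO80#1 and siINO80#2, while SOX9 had 3602, 4054 and 4145. KRT7, at few reads, had 2.07, 6.57 and 3.46. The 4 markers summed to 19248 to 24594 in DMSO NTG and 28480.3 to 44124 in DMSO siMCRS1, and to 19824 to 21679 and 27300.5 to 27773 in the same groups with EPZ-6438. There the sum was higher together with KRT19, and of the 3 tested 1 was called higher and 0 lower in each treatment. SPP1 was the most abundant of them in both tables, CFTR was at 0 in all 10 libraries of the MCRS1 experiment, and their part in the KRT19 results was not tested.

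The partners of E-cadherin and the other junctions did not follow CDH1 as groups. Among the genes of adherens junctions and cadherin partners the counts were 5 of 11 higher and 0 lower with siINO80#1, 4 of 11 higher and 0 lower with siINO80#2, 7 of 11 higher and 1 lower with siMCRS1 in DMSO and 7 of 11 higher and 1 lower in EPZ-6438, with medians of 0.44, 0.14, 0.45 and 0.45, and 4 to 5, 2 to 4, 4 to 8 and 3 to 8 called higher across alternatives. The 1 gene that fell with siMCRS1 was CTNND1, the catenin p120 that holds E-cadherin at the membrane (-1.05 and -1.06), which stood at -0.01 and -0.06 with the INO80 siRNAs, neither called. NECTIN1, an adhesion molecule of the same junction, rose in all 4 (1.16, 1.54, 0.69 and 0.72). The tight junction list was mixed, with 3 of 19 higher and 5 lower, 4 of 19 higher and 8 lower, 6 of 19 higher and 7 lower and 8 of 19 higher and 8 lower in the same order and medians of -0.09, -0.13, 0.10 and 0.16. CGN, the cytoplasmic plaque protein cingulin, fell by 1.28, 1.59, 3.00 and 3.02, while the claudins CLDN4 (0.67, 1.42, 1.08 and 1.34) and CLDN6 (1.45, 1.71, 1.31 and 1.86) rose. Without DMSO NTG 3 the CLDN6 change in DMSO was not called (1.01, adjusted p = 0.122).

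The genes that anchor keratin filaments mostly rose with the INO80 siRNAs. In the list of desmosome and keratin-anchoring genes the counts were 7 of 12 higher and 0 lower with siINO80#1, 9 of 12 higher and 1 lower with siINO80#2, 3 of 12 higher and 2 lower with siMCRS1 in DMSO and 4 of 12 higher and 2 lower in EPZ-6438, with medians of 0.56, 0.82, 0.20 and -0.03. DSP, the desmoplakin that ties keratins to desmosomes, rose in all 4 (1.24, 1.37, 1.24 and 1.40). PPL, periplakin, stood at 1.36 with siINO80#2, called, and EVPL, envoplakin, fell with siMCRS1 (-0.93 and -1.05). Of 16 other keratins only 4 were tested in the INO80 experiment and 7 in the MCRS1 experiment, with 3 of 4 higher and 0 lower, 2 of 4 higher and 0 lower, 3 of 7 higher and 0 lower and 4 of 7 higher and 0 lower, and medians of 0.79, 0.41, 0.50 and 0.97. KRT23 rose with siINO80#1 (0.89) and with siMCRS1 (1.71 and 1.60), KRT15 with siINO80#2 (1.90) and KRT80 with both INO80 siRNAs (1.40 and 0.70).

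Epithelial surface genes went both ways, with 4 of 10 higher and 3 lower, 5 of 10 higher and 3 lower, 2 of 10 higher and 3 lower and 2 of 10 higher and 4 lower in the same order and medians of 0.16, 0.26, -0.28 and -0.26. CD24, a surface glycoprotein, rose in all 4 (1.09, 1.99, 2.14 and 2.43), SPINT1, an inhibitor of surface proteases, rose with the INO80 siRNAs (1.55 and 1.91), and CDS1 fell in all 4 (-0.73, -0.84, -0.98 and -0.97). Of 12 epithelial transcription and splicing regulators 7 were tested, with 2 of 7 higher and 1 lower, 2 of 7 higher and 1 lower, 3 of 7 higher and 1 lower and 3 of 7 higher and 1 lower, and medians of 0.16, -0.17, 0.65 and 1.14. KLF5, an epithelial zinc finger factor, rose in all 4 (0.85, 1.22, 2.13 and 2.56), and ESRP2, which sets epithelial splice forms, fell with siMCRS1 (-1.23 and -1.45). Of the 11 other EMT transcription factors, 6 were tested in the INO80 experiment and 5 in the MCRS1 experiment, with 2 of 6 higher and 0 lower, 3 of 6 higher and 0 lower, 2 of 5 higher and 0 lower and 3 of 5 higher and 0 lower, and medians of 0.39, 0.39, 0.12 and 0.36. SNAI1, or Snail, rose with siINO80#2 (1.32) and with siMCRS1 (1.78 and 1.45), opposite in sign to its relative SNAI2. With siINO80#1 it rose by 0.53 (adjusted p = 0.0276), a call that was lost without NTG A, NTG C, siINO80#1 B or siINO80#1 C (0.48, 0.51, 0.42 and 0.54). TCF3, the E-box factor E2A, rose in all 4 (0.76, 0.71, 0.92 and 0.89). Across the alternatives some list medians changed sign with siMCRS1, running from -0.51 to 0.47 in DMSO and -0.49 to 0.40 in EPZ-6438 for epithelial surface genes, from -0.03 to 0.30 and -0.26 to 0.14 for the desmosome list and from -0.12 to 0.92 in DMSO for the transcription factors. Of the 126 tested genes in the 10 lists, limma called none for EPZ-6438 against DMSO in NTG, in siMCRS1 or for the interaction, with 33, 22 and 5 at an unadjusted p under 0.05, beside 17.1%, 9.12% and 2.35% of all tested genes. For the same comparisons edgeR called 0, 0 and 0 of them and DESeq2 12, 4 and 0, where DESeq2 called 721, 149 and 5 of 14304 genes in all.

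**Figure D5:**
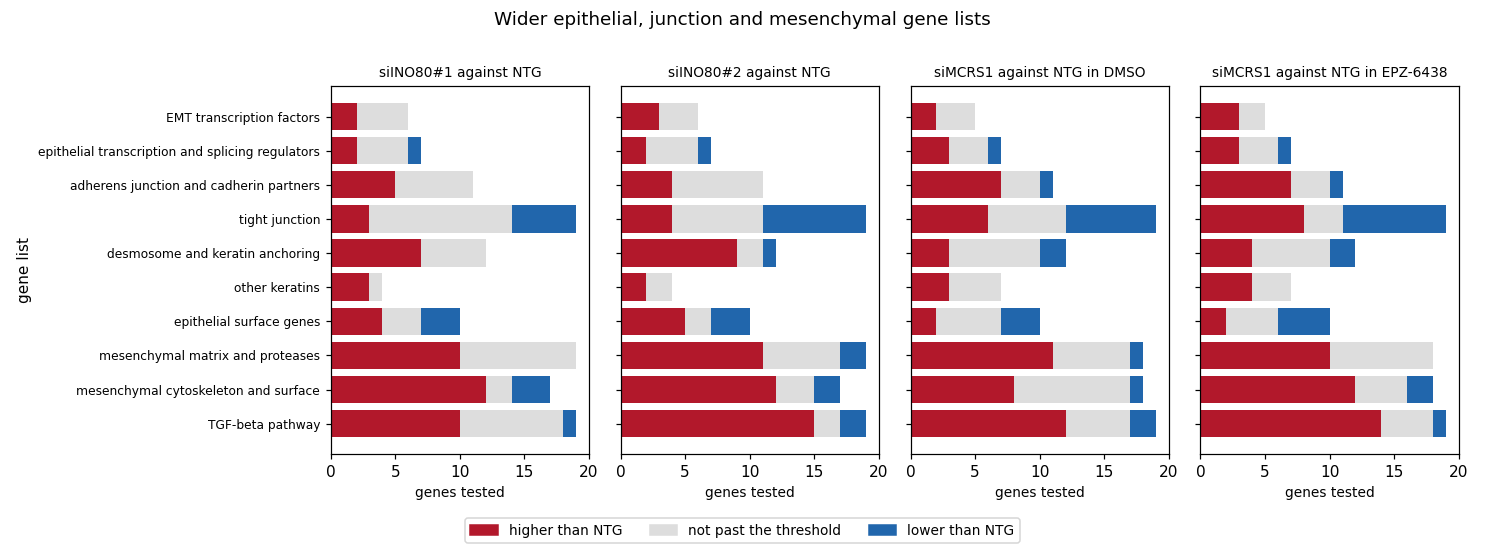
Number of tested genes (horizontal axis) in each of the 10 wider lists that were called higher (red), called lower (blue) or not past the threshold (grey) in 4 knockdown comparisons. Red exceeds blue in the 2 mesenchymal lists and the TGF-beta pathway in every panel, while the tight junction list holds as much blue as red or more.

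The genes whose levels followed the members most closely were found as those with the highest smaller value of 2 Pearson correlations of log2 levels, 1 over the 9 libraries of the INO80 experiment and 1 over the 10 of the MCRS1 experiment, among 11420 genes with a mean of at least 50 in both. For CDH1 this was TMPRSS2, a surface protease (0.91 and 0.92), and for KRT19 it was MEX3B, an RNA-binding protein (0.97 and 0.97). For ZEB1 it was TJP1, the tight junction scaffold ZO-1 (0.93 and 0.99). For CDH2 it was CRIM1 (0.90 and 0.91), for KRT8 it was PLIN3, which coats lipid droplets (0.95 and 0.96), and for KRT18 it was VOPP1 (0.93 and 0.94). The libraries of a table share their siRNA groups, so these values describe the differences between groups as much as those within them.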

How the data were processed

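RNA-seq of HepG2 cells was deposited by the authors as 2 tables of gene-level signal, namely read counts divided by a size factor per library (normalized counts). The submitters' processing notes name kallisto, DESeq2 and GRCh38, with no versions. Each library's values were whole multiples of 1 step (100% of values, tolerance 0.01), so the reads, which kallisto estimates, were recovered. Columns were assigned by the siRNA and drug in their names. No replicate pair agreed within counting error.

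Normalized counts were tested with limma 3.58.1 (R 4.3.3, trend) on log2(value + 1), keeping genes that averaged 10 or more, and p-values were adjusted by Benjamini-Hochberg over all of them. The deposited values are not raw counts, so edgeR 4.0.16 and DESeq2 1.42.0 on the recovered reads were alternatives. Others were pseudocounts of 0.1 and 5, no filter, a mean of at least 50, equal totals, quantile normalization, no trend, only the compared groups, a replicate block and each library left out. Same-letter libraries of NTG and siINO80#1 deviated together from their group means (r of 0.247, 0.263 and 0.135 for A, B and C), while those of NTG and siINO80#2 did not (0.0946, -0.08 and 0.0225). These values are not independent, and whether the letters pair libraries is not known. A block by the column numbers of the MCRS1 table was added after seeing the data. Python 3.11.15 with pandas 2.3.3 and matplotlib 3.10.9 was used for summaries and figures.

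On simulated data with planted log2 changes of 1, limma recovered 99% for siINO80#1 over 14034 genes and 100% for siMCRS1 in DMSO over 14312, with 4.33% and 3.38% of calls false. The changes were planted only in genes with a mean of at least 50, and in far fewer genes than were called here. The simulated spread was set by formula and not taken from these libraries. These shares therefore do not give the power for members with wide standard errors, such as CDH1, ZEB2 and SNAI2. The 10 members and the wider lists of 166 genes were chosen with earlier results of these data known. From a list, only genes among the 2 largest increases and 2 largest decreases called in a comparison, with a mean of at least 50, were named. VIM was left out of all tests. The sums of 2 cell type marker lists are not reported here.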

Additional observations from a re-analysis of the deposited data

How the results depend on the processing

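Leaving out 1 library lowered the number of called members in some fits for siMCRS1 in DMSO and in EPZ-6438, with 7 in both when all were kept. Every such fit also called fewer of all 14312 tested genes than the 6830 and 7686 of the main fit. For siINO80#1 the number of called members was 5 instead of 2 when only the compared groups were fitted. Of all 14034 tested genes, 6837 instead of 5833 were then called. Of 1269 values of single members under alternatives, 1207 kept direction and side of the threshold, 36 lost a call, 26 gained one and 0 reversed. Of 5012 values of other genes, 4751 kept both, 207 lost a call and 52 gained one. The 2 reversals were CALD1 under quantile normalization, at -0.25 for siMCRS1 in DMSO (0.09 otherwise) and -0.13 in EPZ-6438 (0.30 otherwise), and the cause was not tested. Called genes rose from 55 to 721 with DESeq2 and 85 with quantile normalization for EPZ-6438 in NTG, from 13 to 149 with DESeq2 in siMCRS1 and from 0 to 5 with DESeq2 for the interaction. For EPZ-6438 in NTG and in siMCRS1 they fell to 20 and 4 without a filter and to 19 and 7 without a trend. In NTG they were 8 and 2 without DMSO NTG 1 or 3 and 19, 20 and 4 without EPZ-6438 NTG 1, 2 or 3. In siMCRS1 they were 11, 26 and 1 without DMSO siMCRS1 1, 2 or 3, 0 and 6 without EPZ-6438 siMCRS1 A or B, and 0 when only the compared groups were fitted.

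In the INO80 experiment, libraries with the same letter had a mean r of 0.103 over 9 pairs, and those of other letters -0.05 over 18 pairs. Deviations from a group mean cancel within the group, so the second value follows largely from the first and adds no evidence of pairing. With the letter as a replicate block, 3, 3 and 1 members were called for siINO80#1, siINO80#2 and their difference, and SNAI2 was the added call (adjusted p = 0.0327, limma). Of all 14034 tested genes, 6327, 8127 and 3590 were called in these fits. Of the 10 columns of the MCRS1 table, 8 carry numbers, which the labels do not tie to samples. The main fit therefore did not pair libraries by number. Most same-number libraries still deviated together. DMSO NTG 1 and 3 had r of 0.303 and 0.285 with DMSO siMCRS1 and 0.221 and 0.303 with EPZ-6438 NTG. The deviations of these 2 libraries mirror each other, so their values are not independent. DMSO siMCRS1 and EPZ-6438 NTG had r of 0.159, -0.017 and 0.207 for 1, 2 and 3. Whether the numbers pair libraries is not known. With the number as a replicate block in these 8 libraries, added after seeing the data, 8 members were called for siMCRS1 in DMSO, where KRT18 was added (0.34, adjusted p = 0.00360, limma), and 1 for EPZ-6438 in NTG, KRT18 (-0.49, adjusted p = 0.0160). Among all genes the calls were then 8000 and 1161, against 6631 and 59 in the same libraries with no block. Depth limits VIM and SNAI2 most.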
